A study of Mus musculus with 15 samples.

Results

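Desmosomes and cadherin junctions hold the epithelial cells of the mammary duct and alveolus to each other. Transcripts of 10 genes that build them were measured on microarrays in 5 sorted populations of mouse mammary epithelial cells: 2 classical cadherins (Cdh1, Cdh3), the plaque proteins Dsp and Jup, 3 desmosomal cadherins (Dsg2, Dsc2, Dsc3) and 3 plakophilins (Pkp1, Pkp2, Pkp3). The genes were chosen by name. Each is read here through a probe set (a group of short probes to a single transcript) that carries this symbol alone, and where a gene had several, through the one with the highest mean log2 intensity over the 15 arrays. All 10 were among the 12143 genes bright enough to be tested, of 18193 genes with a single-symbol probe set.

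All mice were adult C57BL/6 females, and each population had 3 arrays. Wild-type virgin mice gave the basal population (MaSC), sorted as Lin-CD24+CD29hi and enriched for stem cells, and both luminal ones. The latter were Lin-CD24+CD29lo and were split by CD61 into luminal progenitors (LP, CD61+) and mature luminal cells (ML, CD61-). Wap-Cre;R26Y mice gave the populations sorted as Lin-YFP+ only: alveolar luminal cells (AL), taken at midgestation, and those that the labels call alveolar luminal stem/progenitor cells (ALP), taken from virgins. Lin- means negative for CD31, CD45 and TER119, which mark endothelial, blood and red cells. The Wap-Cre transgene makes Cre in cells that switch on the promoter of Wap, a milk gene. R26Y turns YFP on after Cre has acted, so the mark stays in a cell and its descendants whatever they express later. MaSC, LP and ML came from 3 cell suspensions, so the 3 populations share mice. Whether the 3 arrays of AL, and those of ALP, came from separate animals is not stated, so p-values involving them measure the spread between these arrays, which may be technical. Genotype, stage and sort gate differ together between AL and the wild-type virgin populations and cannot be told apart there. AL and ALP share the genotype and the gate.

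In an adherens junction, a classical cadherin such as E-cadherin (Cdh1) or P-cadherin (Cdh3) binds the same protein on the neighbouring cell and is tied to actin through catenins. In a desmosome, desmogleins and desmocollins do the binding, plakoglobin (Jup) and the plakophilins bind their tails, and desmoplakin (Dsp) ties the plaque to keratin filaments. In the mammary duct, P-cadherin is known as a marker of the outer basal layer and E-cadherin as the main cadherin of the inner luminal layer.

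Against this background, Dsp stood apart in AL, Cdh3 and Pkp2 in MaSC, and Pkp1 stepped down from MaSC and LP through ML to AL. In limma's moderated F test over the 5 populations, with Benjamini-Hochberg adjustment over all genes tested, 9 of the 10 genes differed (adjusted p from 2.58e-07 for Dsp to 0.0448 for Dsc3). The same test called 84.7% of all genes, so the share of the junction genes is near that of any gene. Dsg2 was the exception (adjusted p = 0.150). The plot of all 10 genes by array shows these patterns.

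**Figure D1:**
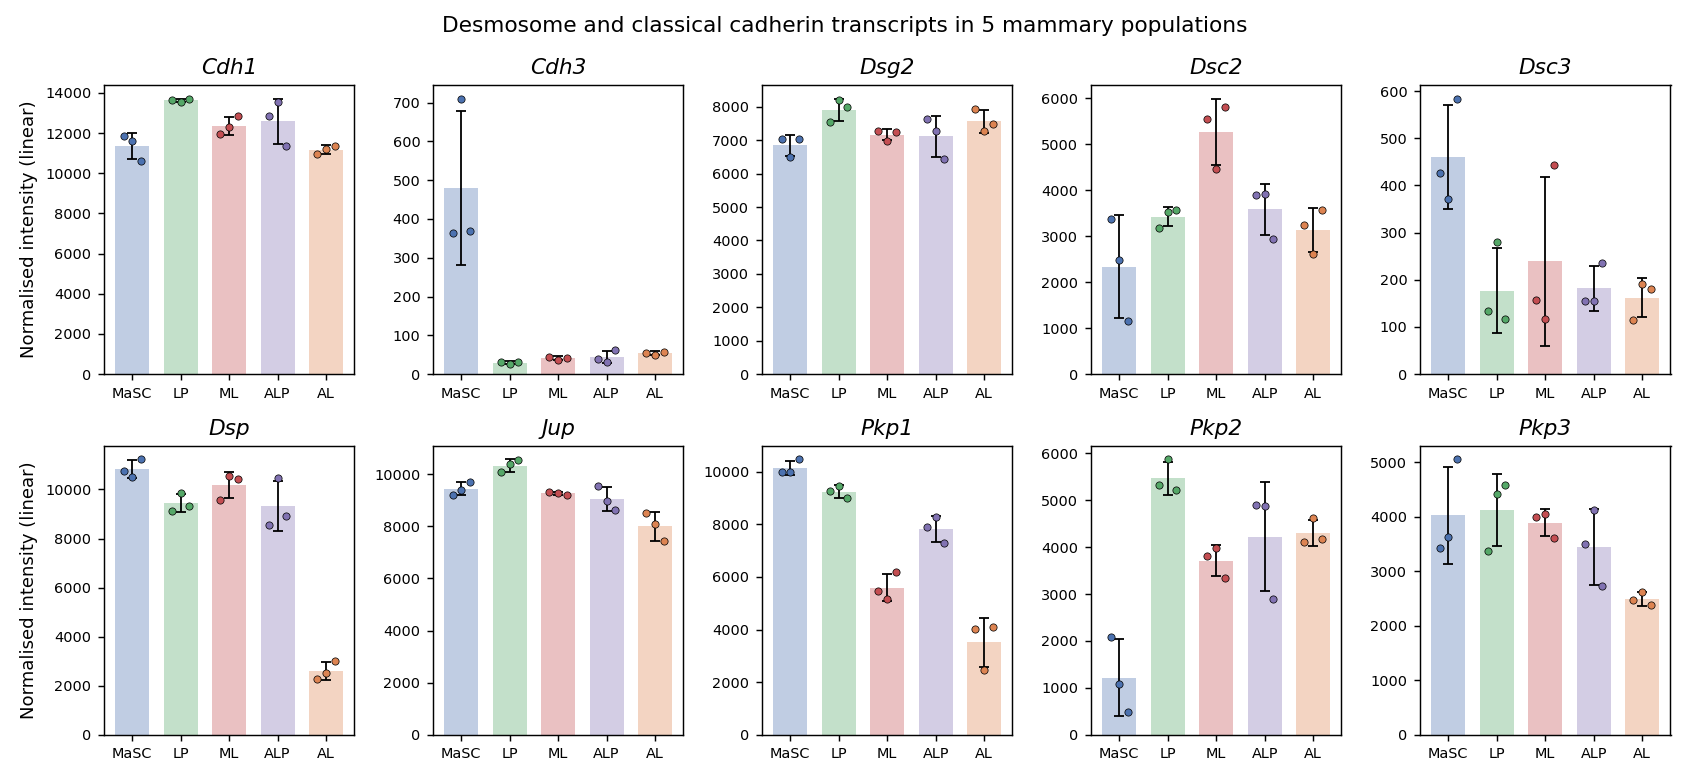
Intensity of each junction gene on the 15 arrays, on a linear axis from 0, by population; points are replicates 1 to 3 from left to right, bars are means and error bars the SD (n = 3). Dsp lies between 2285 and 2993 in AL and between 8549 and 11222 elsewhere, Cdh3 lies between 363 and 710 in MaSC and at 61.2 or less elsewhere, and Dsg2 stays between 6446 and 8197 throughout.

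Markers of other cell types stood above the array median on several arrays, and their part in the results below was not tested except where stated. The 7 basal markers (Krt5, Krt14, Acta2, Myh11, Trp63, Cnn1 and Mylk) had a mean log2 intensity of 13.10 to 13.23 on the MaSC arrays, 6.55 to 7.29 on LP and ML, and 10.21 to 10.65 on AL, where all 7 were above the median of the array. The 8 fibroblast markers averaged 11.96 to 12.56 on LP, 11.59 to 12.13 on AL and 12.34 to 13.36 on ALP, but 5.98 to 6.53 on ML and 8.84 to 9.47 on MaSC. ALP replicate 3 stood apart from ALP replicates 1 and 2: its leukocyte markers averaged 12.71 against 7.43 and 7.80, its endothelial markers 10.65 against 7.65 and 8.58, and its basal markers 11.72 against 9.34 and 8.94. In bulk samples, fewer cells of a type and less RNA per cell cannot be told apart. The labels fitted their own markers in part. The 6 milk protein markers averaged 12.60 to 13.08 on AL and 9.86 or less on every other array. The luminal progenitor markers averaged 12.16 to 12.34 on LP and ALP, but were nearly as high on AL, at 11.83 to 11.87. On ML they averaged 9.51 to 9.93. The mature luminal markers averaged 12.57 to 12.82 on ML and 9.90 to 11.08 on LP. On ALP, labelled as stem/progenitor cells, they lay between these, at 11.46 to 12.09.

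**Figure D2:**
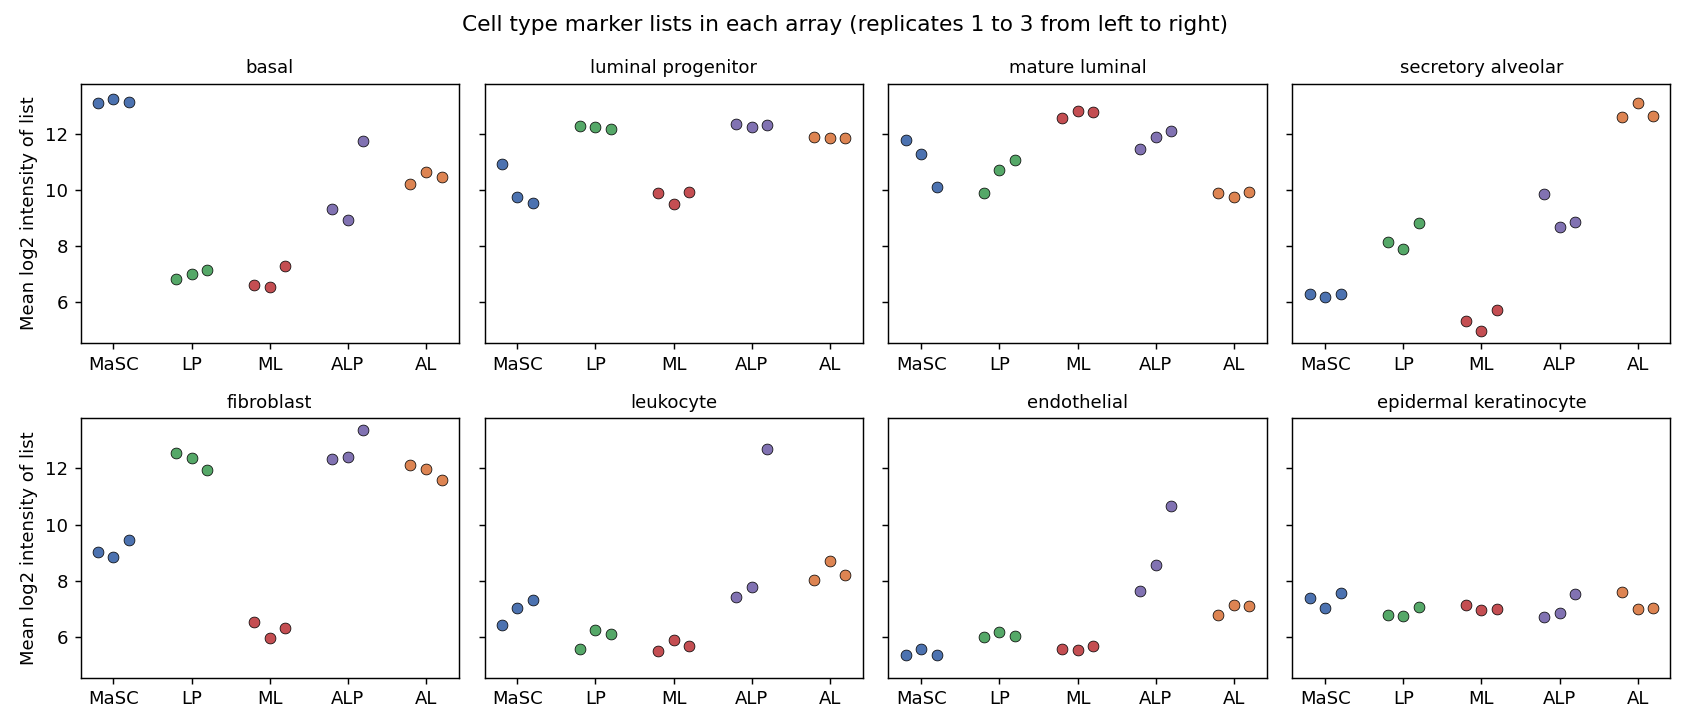
Mean log2 intensity of each list of marker genes on the 15 arrays, by population; points are replicates 1 to 3 from left to right. Basal markers are highest in MaSC and reach 10.21 to 10.65 in AL, fibroblast markers are lowest in ML, and ALP replicate 3 has the highest leukocyte value, 12.71.

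Dsp encodes desmoplakin, the plaque protein that every desmosome needs to hold keratin filaments. Its intensity was 2285, 2503 and 2993 on the AL arrays. It was 9141, 9870 and 9318 on LP, 9570, 10566 and 10412 on ML, 8549, 10464 and 8915 on ALP and 10732, 10514 and 11222 on MaSC. No AL array came near any of the other 12. Dsp was lower in AL than in LP by 1.87 on the log2 scale (3.66-fold, SE 0.107, adjusted p = 4.92e-07), than in ML by 3.95-fold (adjusted p = 1.30e-07) and than in ALP by 3.60-fold (adjusted p = 9.02e-07), and MaSC was 4.20-fold above AL (adjusted p = 9.80e-08). The other 4 populations were not told apart in any pair, with adjusted p from 0.118 for MaSC against ALP to 0.910 for ALP against LP. Among these 4, the widest bound of a 95% interval was 0.46 on the log2 scale, for MaSC against ALP.

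The fall of Dsp held on both of its probe sets that passed the filter. On the second of these, AL was 6.62-fold below LP, 7.61-fold below ML and 6.35-fold below ALP. Its remaining probe set was too dim to test, with a mean of 31.5 in AL and 65.7 to 130.9 elsewhere. Over all alternative settings the log2 difference between AL and LP stayed between -2.73 and -1.79, and that between AL and ALP between -2.67 and -1.67. The sort excluded Lin+ cells, which are meant to include leukocytes. The leukocyte markers averaged 8.02 to 8.69 on AL and 5.57 to 6.26 on LP, with a summed intensity over the 8 genes of 3701 to 5360 and 489 to 1167 and none at 0, and their part in the result was not tested. In the same pair Cdh1 was 1.22-fold lower in AL. Of the 8 keratins tested, 1 was lower in AL, Krt7 by 2.51-fold (adjusted p = 0.00119), and 3 were higher. The luminal keratin Krt18, named here after its values were seen, differed by 1.06-fold (adjusted p = 0.322).

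Jup encodes plakoglobin, which serves both desmosomes and adherens junctions. It moved the same way in AL but far less. Intensities were 8500, 8074 and 7422 on AL, 10067, 10381 and 10535 on LP, 9303, 9274 and 9218 on ML, 9546, 8966 and 8622 on ALP, and 9213, 9404 and 9718 on MaSC. The AL arrays lay below all others. Jup was lower in AL than in LP by 0.37 on the log2 scale (1.29-fold, SE 0.070, adjusted p = 0.00137) and than in ML by 1.16-fold (adjusted p = 0.0227), and MaSC was 1.18-fold above AL (adjusted p = 0.0112). Against ALP the difference of 1.13-fold did not pass (adjusted p = 0.0627). It passed without ALP replicate 3, at -0.21 on the log2 scale with an adjusted p of 0.0493. Without AL replicate 1 it also passed, at -0.22 with an adjusted p of 0.0461. AL replicate 3 carried part of the difference: without it, neither AL against ML (-0.16) nor MaSC against AL (0.19) passed. With each array centred on its median, MaSC against AL (0.17, adjusted p = 0.309) and AL against LP (-0.35, adjusted p = 0.0585) did not pass either, and the difference between AL and ALP was 0.0040.

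Sequence upstream of the start was held only for Dsp and Jup, 2 of the 10 genes, and these are shown for that reason. Both were lower in AL than in LP and ML, as were Pkp1 and Pkp3. The windows are the 250 bases before the RefSeq start on GRCm38.p6, chr13:38151044-38151293 on the plus strand for Dsp and chr11:100397791-100398040 on the minus strand for Jup, both 5′ to 3′ along the gene. Capitals mark GC boxes (GGGCGG or its complement CCGCCC, the letters Sp1 proteins are known to bind) and CCAAT boxes (CCAAT or its complement ATTGG).
Dsp: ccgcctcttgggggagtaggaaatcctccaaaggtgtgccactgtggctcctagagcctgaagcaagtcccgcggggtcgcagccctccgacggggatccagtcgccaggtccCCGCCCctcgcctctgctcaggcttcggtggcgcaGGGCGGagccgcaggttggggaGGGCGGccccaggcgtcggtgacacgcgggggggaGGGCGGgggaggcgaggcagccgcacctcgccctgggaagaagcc
Jup: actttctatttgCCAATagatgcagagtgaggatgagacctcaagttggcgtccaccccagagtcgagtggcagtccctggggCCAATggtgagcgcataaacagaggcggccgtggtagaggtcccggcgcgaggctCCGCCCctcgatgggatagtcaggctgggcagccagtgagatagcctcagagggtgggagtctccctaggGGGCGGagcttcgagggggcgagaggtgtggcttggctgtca
The Dsp window held 4 GC boxes, the nearest beginning 45 bases before the start, and no CCAAT box. The Jup window held 2 GC boxes, at 112 and 42 bases, and 2 CCAAT boxes, at 238 and 167 bases. Neither held the E-box CACCTG (complement CAGGTG), the letters that Snail and Zeb factors are known to bind, nor TATAAA (complement TTTATA). No motif overlapped another. Of 32851 RefSeq windows of this length, 32.7% held the GC box, 33.8% the CCAAT box, 17.2% the E-box and 12.4% the TATA box. These are matches of letters only, and no binding was measured here.

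The plakophilins, armadillo proteins that link the desmosomal cadherins to desmoplakin, each followed a course of their own. Pkp1 separated the most pairs of populations: the arrays did not overlap in any of the 10 pairs, and 7 passed the test. Intensities were 9994, 9994 and 10459 on MaSC, 9270, 9457 and 8988 on LP, 7880, 8255 and 7280 on ALP, 5461, 5156 and 6168 on ML, and 4021, 2447 and 4101 on AL. The order of the means was therefore MaSC, LP, ALP, ML and AL. The neighbours MaSC and LP (1.10-fold, adjusted p = 0.538) and LP and ALP (1.18-fold, adjusted p = 0.372) were not told apart, nor were MaSC and ALP (1.30-fold, adjusted p = 0.0831).

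AL was below every other population in Pkp1. MaSC exceeded it 2.96-fold (adjusted p = 1.14e-05), LP 2.69-fold (adjusted p = 4.43e-05), ALP 2.27-fold (adjusted p = 0.000193) and ML 1.63-fold (adjusted p = 0.00334). The log2 difference of AL from ML was -0.70, and -0.46 without AL replicate 2. Among the virgin populations ML was the lowest, 1.82-fold below MaSC (0.86 on the log2 scale, SE 0.163, adjusted p = 0.000878) and 1.66-fold below LP (adjusted p = 0.0034). The step from ALP to ML, 1.40-fold (0.48 on the log2 scale, adjusted p = 0.0364), was the least stable. It was 0.43 under quantile normalization, which did not pass, and 0.15 with arrays centred on their medians, which did not pass, and it was lost without any one of ML replicate 1 (0.47), ML replicate 2 (0.43), ALP replicate 1 (0.47) or ALP replicate 2 (0.44). Pkp1 had a single probe set, so no second one could be set beside it.

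Pkp2 ran the other way: it was low in MaSC and high in all luminal populations. Pkp2 encodes the plakophilin best known from simple epithelia and heart muscle. Intensities were 2093, 1083 and 484 on MaSC, 5314, 5867 and 5213 on LP, 3815, 3977 and 3336 on ML, 4906, 4871 and 2886 on ALP, and 4102, 4623 and 4181 on AL. All 3 MaSC arrays lay below the other 12. MaSC was lower than LP by 2.40 on the log2 scale (5.29-fold, SE 0.395, adjusted p = 0.00068), than ML by 3.59-fold (adjusted p = 0.00195), than ALP by 3.98-fold (adjusted p = 0.00266) and than AL by 4.16-fold (adjusted p = 0.000889). No pair among the other 4 populations passed, the largest being LP against ML at 1.48-fold (adjusted p = 0.260), where the arrays did not overlap. All 4 probe sets of Pkp2 passed the filter and were lower in MaSC in all 4 of its pairs, by 5.28- to 8.36-fold against LP and 3.59- to 4.87-fold against ML.

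The spread of Pkp2 within MaSC followed the luminal markers on the same arrays. The mature luminal markers averaged 11.76, 11.28 and 10.10 on MaSC replicates 1, 2 and 3, and the luminal progenitor markers 10.93, 9.76 and 9.55, in the order of the Pkp2 values. Their part in the result was not tested. Without MaSC replicate 1 the log2 difference in Pkp2 between MaSC and LP was -2.91, and without MaSC replicate 3 it was -1.86. Both passed, and all 4 differences kept their direction under every alternative, though that between MaSC and ALP did not pass with only these 2 populations in the fit.

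Pkp3 was lowest in AL. This plakophilin binds most desmosomal cadherins and is known across simple and stratified epithelia. Intensities were 2469, 2628 and 2378 on AL, 3419, 3622 and 5051 on MaSC, 3373, 4413 and 4588 on LP, 3999, 4059 and 3603 on ML, and 3504, 4116 and 2721 on ALP. The AL arrays lay below all others, by a small margin below ALP replicate 3. AL was lower than LP by 1.64-fold (-0.72 on the log2 scale, SE 0.179, adjusted p = 0.0069), than ML by 1.56-fold (adjusted p = 0.00996) and than MaSC by 1.59-fold (adjusted p = 0.00676). Against ALP the difference of 1.36-fold did not pass (adjusted p = 0.0647), but it did without ALP replicate 3, at -0.61 on the log2 scale with an adjusted p of 0.0184. A second Pkp3 probe set was also lower in AL, 1.71-fold against LP and 1.90-fold against ML. No pair among MaSC, LP, ML and ALP passed.

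**Figure D3:**
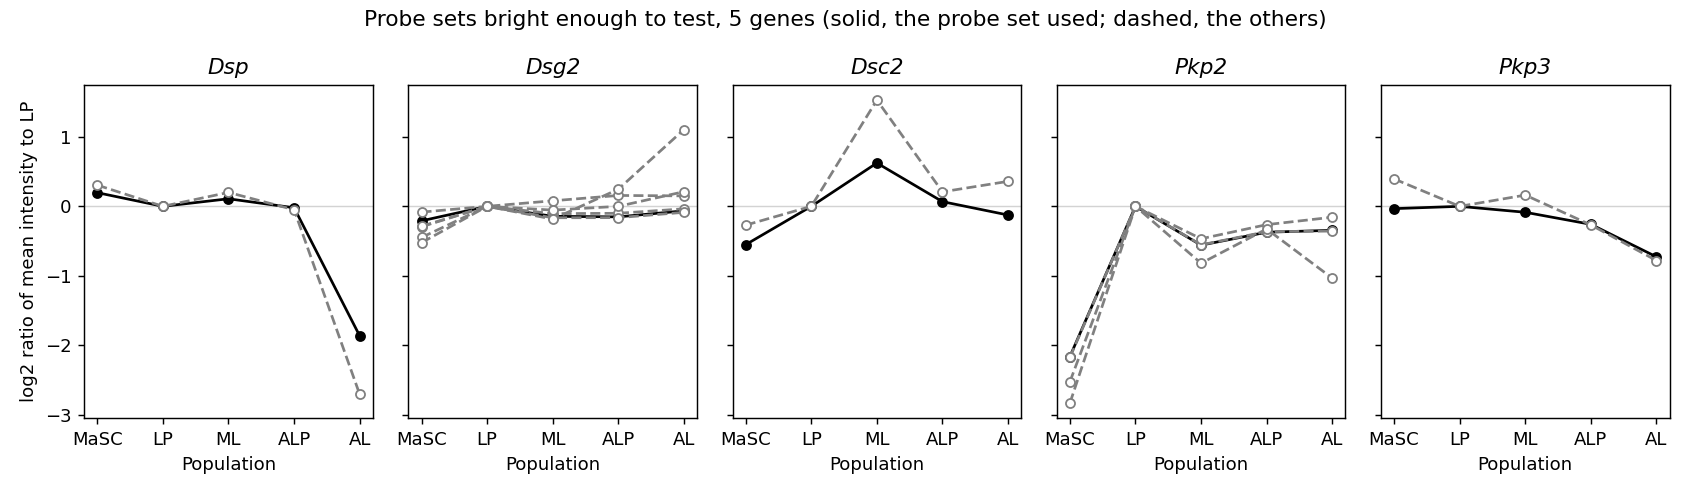
Log2 ratio of the mean intensity in each population to that in LP, for the probe sets of the genes with more than 1 probe set that passed the filter (Dsp, Dsg2, Dsc2, Pkp2 and Pkp3); solid lines are the probe sets used and dashed lines the others. Both lines of Dsp drop in AL, the 4 lines of Pkp2 drop in MaSC, and both lines of Dsc2 peak in ML.

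Among the desmosomal cadherins, Dsg2 passed in none of the 10 pairs on the probe set used, Dsc2 in MaSC against ML, and Dsc3 in all 4 pairs with MaSC. Dsg2 is the desmoglein of simple epithelia. Intensities were 7021, 6482 and 7027 on MaSC, 7547, 8197 and 7983 on LP, 7264, 6970 and 7243 on ML, 7631, 7283 and 6446 on ALP, and 7943, 7271 and 7470 on AL. The means spanned 6843 to 7909, a log2 difference of 0.21 between MaSC and LP (adjusted p = 0.0547). The widest bound of the 95% intervals over the 10 pairs was 0.38 on the log2 scale, or 1.30-fold, so larger differences lie outside them. Dsg2 had 6 probe sets that passed the filter. On the dimmest, with means between 154.7 and 377.9, AL was 2.14-fold above LP (adjusted p = 0.00496) 1.96-fold above ALP (adjusted p = 0.0112), 2.44-fold above ML and 2.27-fold above MaSC, and the calls against LP, ML and ALP were ones which the brighter 5 did not show. On another, with means between 4690.1 and 6401, MaSC was lower than LP by 1.36-fold (adjusted p = 0.00768), than AL by 1.28-fold (adjusted p = 0.0141) and than ML by 1.22-fold (adjusted p = 0.0440). With array weights, the probe set used also passed in MaSC against LP (-0.26 on the log2 scale, adjusted p = 0.00663), MaSC against AL (-0.18) and LP against ML (0.15).

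Dsc2, the desmocollin of simple epithelia, was highest in ML. Intensities were 5554, 4459 and 5804 on ML, 3186, 3515 and 3563 on LP, 3889, 3920 and 2946 on ALP, 3238, 2612 and 3561 on AL, and 3376, 2476 and 1150 on MaSC. The ML arrays lay above all others. One pair passed: MaSC was 2.46-fold below ML (1.30 on the log2 scale, SE 0.306, adjusted p = 0.00335). ML exceeded LP by 1.53-fold (adjusted p = 0.114), ALP by 1.47-fold (adjusted p = 0.171) and AL by 1.68-fold (adjusted p = 0.0562), none of which passed on this probe set. On the second, dimmer probe set all 3 did, at 2.87-fold against LP (adjusted p = 0.00124), 2.47-fold against ALP and 2.25-fold against AL. The SE of Dsc2 is widened by MaSC, whose arrays spanned 1150 to 3376 in the same order as Pkp2 and the luminal markers. Without MaSC replicate 1, MaSC was also lower than LP (-1.02 on the log2 scale, adjusted p = 0.0134), ALP (-1.07, adjusted p = 0.0104) and AL (-0.88, adjusted p = 0.0178). Without MaSC replicate 3 the same differences were -0.24 (adjusted p = 0.354), -0.30 (adjusted p = 0.260) and -0.11 (adjusted p = 0.655), and the called difference between MaSC and ML was -0.86 (adjusted p = 0.00352) in place of -1.30.

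Dsc3, a desmocollin known from basal layers of stratified epithelia, was highest in MaSC, at low intensity. Values were 427, 372 and 584 on MaSC, 134, 281 and 116 on LP, 156, 116 and 444 on ML, 154, 155 and 236 on ALP, and 115, 191 and 180 on AL, where the medians of all probe sets on the arrays lay between 136.8 and 209.9. ML replicate 3 overlapped with MaSC. MaSC was higher than AL by 1.51 on the log2 scale (2.86-fold, SE 0.467, adjusted p = 0.0150), than LP by 2.77-fold (adjusted p = 0.0263), than ALP by 2.54-fold (adjusted p = 0.0398) and than ML by 2.26-fold (adjusted p = 0.0466). These calls were fragile. Leaving out MaSC replicate 3 ended all 4 (1.33 on the log2 scale against AL, 1.29 against LP, 1.16 against ALP and 0.99 against ML), and leaving out AL replicate 1 (1.29), LP replicate 1 (1.33) or LP replicate 3 (1.22) ended the call in its own pair. Against ALP it was also lost without MaSC replicate 1 (1.39) or 2 (1.49) or ALP replicate 1 (1.24) or 2 (1.25). Against ML it was lost without MaSC replicate 1 (1.22) or 2 (1.32) or ML replicate 1 (1.00) or 2 (0.78). The second Dsc3 probe set was too dim to test, with means of 39.0 to 51.8.

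Of the classical cadherins, Cdh3 marked MaSC. P-cadherin was measured at 363, 710 and 369 on MaSC. It was 32.1, 26.4 and 30.3 on LP, 44.8, 35.4 and 41.9 on ML, 37.9, 31.1 and 61.2 on ALP, and 54.0, 49.1 and 58.3 on AL. All 12 arrays outside MaSC were below the median of their array and all 3 MaSC arrays above it. Since the filter asks for 3 arrays above the median, Cdh3 entered the test only because it was high in MaSC, and the values elsewhere are not shown to be above background. With no filter on low intensities it passed in all 4 pairs with MaSC. MaSC was higher than LP by 3.95 on the log2 scale (15.5-fold, SE 0.272, adjusted p = 4.23e-06), than ML by 11.3-fold (adjusted p = 1.99e-06), than ALP by 10.98-fold (adjusted p = 1.24e-05) and than AL by 8.51-fold (adjusted p = 3.64e-06). Since the lower values are dim, the size depends on the scale: with 16 added to each intensity the log2 difference between MaSC and LP was 3.38. The second Cdh3 probe set did not pass the filter and had means of 154.9 in MaSC and 40.6 to 60.3 elsewhere.

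Among the dim values, the log2 difference of AL from LP in Cdh3 was 0.86 (adjusted p = 0.0223), between groups that both lie below the array medians, so no direction is read from it. The call was lost without LP replicate 2 (0.78), LP replicate 3 (0.88), AL replicate 1 (0.86) or AL replicate 3 (0.80), and it was 0.61 with 16 added (adjusted p = 0.0488). The basal markers differed between the same arrays, with a summed intensity of 16526 to 20774 on AL and 1517 to 2170 on LP and none at 0, and their part in this difference was not tested. No other pair among LP, ML, ALP and AL passed for Cdh3.

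Cdh1, next to Cdh3 on chromosome 8 in the RefSeq annotation, was bright and nearly level. E-cadherin was measured at 13648, 13565 and 13709 on LP, 12840, 13570 and 11362 on ALP, 11953, 12282 and 12847 on ML, 11864, 11631 and 10631 on MaSC, and 10956, 11235 and 11353 on AL. The mean was highest in LP. MaSC was 1.20-fold below LP (0.26 on the log2 scale, SE 0.078, adjusted p = 0.0189) and AL 1.22-fold below LP (adjusted p = 0.0108). Both missed the threshold with arrays centred on their medians (-0.32, adjusted p = 0.107, and -0.27, adjusted p = 0.154). The first was also lost without MaSC replicate 3 (-0.22), LP replicate 1 (-0.26) or LP replicate 3 (-0.26). It was lost too with replicate number as a block over the 9 virgin wild-type arrays (adjusted p = 0.0734), though the labels do not tie these numbers to mice. Without ALP replicate 3, Cdh1 was lower in AL than in ALP (-0.24 on the log2 scale, adjusted p = 0.0269) and lower in MaSC than in ALP (-0.22, adjusted p = 0.0450). The plot of differences sets all pairs side by side.

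**Figure D4:**
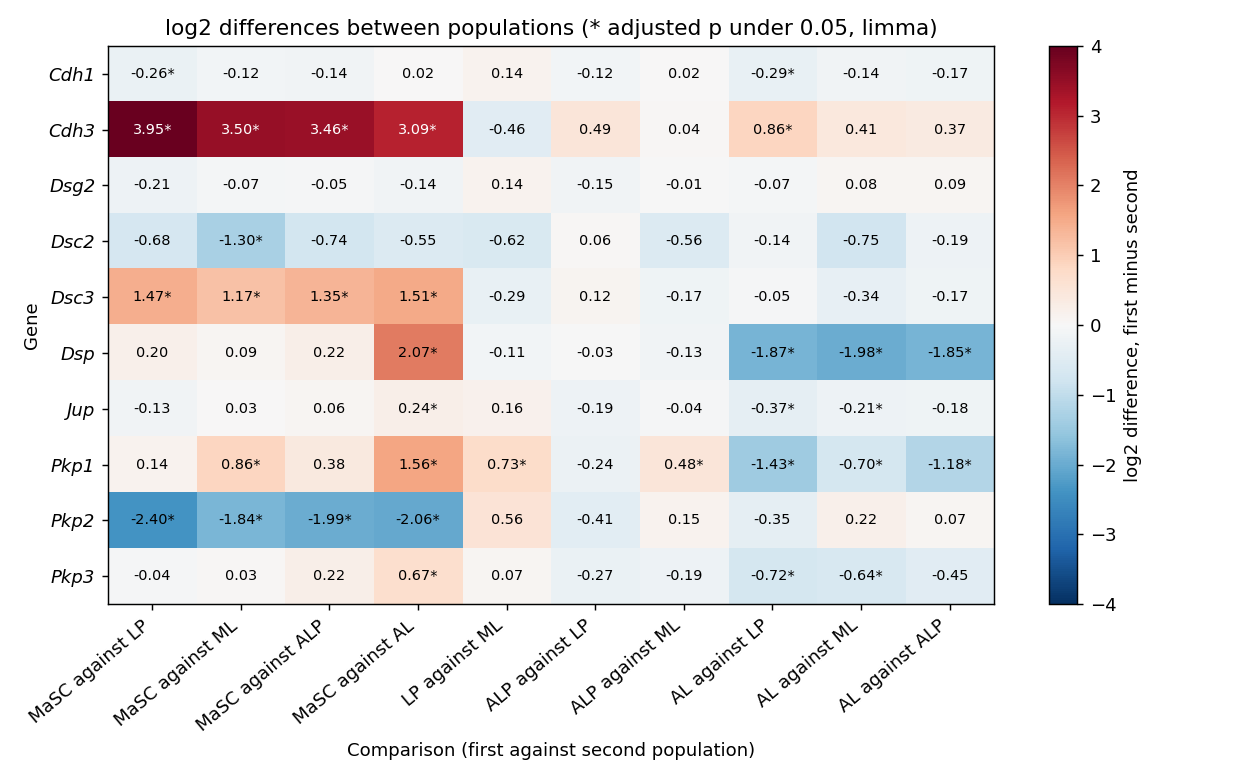
Log2 difference in each of the 10 pairs of populations for each junction gene, as a colour and a printed value, first population minus second; an asterisk marks an adjusted p under 0.05 by limma. Cdh3 reaches 3.95 in MaSC against LP, Pkp2 reaches -2.40 in the same pair, Dsp lies between -1.98 and -1.85 in the 3 pairs of AL with LP, ML and ALP, and Dsg2 stays within 0.21 of 0.

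Counted by pair, the share of the 10 genes called was above that of all genes for MaSC against AL and AL against LP. With Cdh3 left out, it stayed near or slightly above that of all genes in both pairs. Cdh3 entered the test only through its MaSC values. In the other pairs the share was near or below that of all genes. Between MaSC and LP, 4 of 10 passed (Cdh3 and Dsc3 higher in MaSC, Cdh1 and Pkp2 lower) against 38.9% of all genes, and the arrays did not overlap for 8, against 54.0%. Without MaSC replicate 3, LP replicate 1 or LP replicate 3, only Cdh3 and Pkp2 of them passed. Between MaSC and ML, 5 of 10 passed (Cdh3, Dsc3 and Pkp1 higher, Dsc2 and Pkp2 lower) against 59.5%, and the arrays did not overlap for 5, against 65.9%. Between MaSC and ALP, 3 of 10 passed (Cdh3 and Dsc3 higher, Pkp2 lower) against 38.4%, and 5 did not overlap, against 41.9%. Between MaSC and AL, 7 of 10 passed against 59.4%, with 6 higher in MaSC (Cdh3, Dsp, Jup, Dsc3, Pkp1, Pkp3), where 28.1% of all genes were, and Pkp2 lower. The arrays of MaSC and AL did not overlap for 8 of the 10, against 67.8% of all genes.

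Between LP and ML, 1 of 10 passed, Pkp1, against 49.0% of all genes. The arrays of LP and ML did not overlap for 7 of the 10, against 66.6% of all genes, so separation was common and its size small: apart from Pkp1 and Dsc2, these differences were at most 1.48-fold. The test draws its error from all 5 populations, and with LP and ML alone 4 of 10 passed (Cdh3, Dsc2, Pkp1 and Pkp2). The share of all genes called in that fit is not given here, so the count is not read as a trait of these genes. Cdh3 lay below the array medians in both populations.

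AL differed from LP in 6 of 10 (45.5% of all genes), or 5 without the dim Cdh3: Cdh1, Dsp, Jup, Pkp1 and Pkp3 were lower, the lower direction holding 24.2% of all genes. AL differed from ML in 4 of 10 (53.5%), with Dsp, Jup, Pkp1 and Pkp3 lower, against 24.8% lower among all genes. AL differed from ALP in 2 of 10 (39.9%), Dsp and Pkp1, both lower, against 21.2% lower among all genes. Without ALP replicate 3, Cdh1, Jup and Pkp3 joined them and the count was 5. The share of all genes called without that array is not given here. The arrays did not overlap for 7 of the 10 against LP (68.4% of all genes), 9 against ML (69.5%) and 5 against ALP (53.4%). These comparisons share the AL arrays. The median log2 difference of the 10 genes was -0.32 for AL against LP, -0.28 against ML and -0.17 against ALP, where the medians of all genes were -0.03, 0.03 and -0.02.

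ALP and LP were both sorted from virgin mice and both high in luminal progenitor markers, while the mature luminal markers were higher on ALP, as given above. The 2 populations were not told apart in any of the 10 genes by limma, against 7.54% of all genes. The smallest adjusted p was 0.112, for Jup. At an unadjusted p under 0.05, 1 would have passed (25.8% of all genes), Jup, which was lower in ALP by 0.19 on the log2 scale. With array weights 1 of the 10 was called, also Jup, and 4225 of all 12143 genes. The widest bounds of the 95% intervals were -1.27 for Pkp2, 1.14 for Dsc3 and 1.09 for Cdh3 on the log2 scale, so a difference of 2-fold in these genes lies inside them, whereas for Dsp the bounds were -0.26 and 0.21. ALP differed from ML in 1 of 10, Pkp1, against 36.7% of all genes. The arrays of ALP did not overlap with those of LP for 3 of the 10 (31.4% of all genes) nor with those of ML for 2 (49.0%).

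For other junction genes, the shares of all genes called stand as the background: 21.3% were higher and 24.2% lower in AL than in LP, 28.7% higher and 24.8% lower in AL than in ML, 18.7% higher and 21.2% lower in AL than in ALP, and 15.8% higher and 23.1% lower in MaSC than in LP. The median log2 difference of all genes was -0.07 for MaSC against LP. Of 11 further desmosome and plaque genes, 4 were bright enough to test; Dsg1a, Dsg1b, Dsc1 and Cdsn, known from epidermis, were too dim, with means of 44.0 or less in every population. In AL against LP, 3 of the 4 were lower and none higher: Ppl, a plakin of the plaque, by 2.30-fold (adjusted p = 0.00109), Perp, a desmosomal membrane protein, by 1.21-fold (adjusted p = 0.0172), and Pkp4, a plakophilin relative, by 1.16-fold (adjusted p = 0.0274). In AL against ML, Evpl, a plakin, was 4.06-fold lower (adjusted p = 0.000421) and Perp 1.34-fold lower (adjusted p = 0.00101). In AL against ALP none of the 4 passed. The median of the 4 was -0.24 for AL against LP and -0.37 against ML.

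The hemidesmosome anchors keratin to the basement membrane. Of 8 hemidesmosome genes tested, 3 were lower and 2 higher in AL than in LP (median -0.35), and 4 lower and 1 higher than in ML (median -0.26). Against ALP, 3 were lower and 1 was higher in AL (median -0.17). Plec, which encodes plectin, was 2.18-fold below LP (adjusted p = 2.14e-06) and 2.44-fold below ML (adjusted p = 3.57e-07), with a mean of 5152 in AL against 10021 to 12576 elsewhere. Dst, which encodes dystonin, was 1.47-fold below LP and 1.68-fold below ML (adjusted p = 1.12e-05). Against ALP, Plec was 1.94-fold lower in AL (adjusted p = 7.89e-06) and Dst 1.40-fold lower (adjusted p = 0.000539). Lama3, a laminin chain, was 1.77-fold below LP (adjusted p = 0.0146). Col17a1, a hemidesmosome collagen, was 7.88-fold higher in AL than in LP (adjusted p = 0.00679). Its mean was 5410 in MaSC, 172 in AL and 22.5 in LP. The LP value is not shown to be above background, so the size of this fold is uncertain. The basal markers moved with Col17a1 as given above.

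The keratins to which desmosomes attach did not fall as a group. Of 8 tested, 1 was lower and 3 higher in AL than in LP (median -0.02). Krt7 was lower, by 2.51-fold (adjusted p = 0.00119), and Krt15 (3.38-fold), Krt5 (12.9-fold, from a dim mean of 69.7 in LP) and Krt14 (5.39-fold), all basal keratins, were higher. The luminal pair Krt8 and Krt18, named here after their values were seen, differed by 1.08- and 1.06-fold (adjusted p = 0.197 and 0.322). In AL against ALP, Krt7 alone passed, 2.65-fold lower (adjusted p = 0.001).

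Catenins and their partners in the adherens junction showed no direction common to all pairs. Of 17 tested, 2 were higher and 6 lower in AL than in LP (median -0.25), 4 higher and 2 lower than in ML (median 0.0039). Against ALP, 1 was higher and 4 were lower in AL (median -0.22). The largest by its moderated t, Ctnnal1, an alpha-catenin relative, was 2.60-fold higher than in LP (adjusted p = 0.000156), and Nectin1, an adhesion molecule of the same junctions, was 3.66-fold lower (adjusted p = 0.000175). In MaSC against LP, 6 of the 17 were higher and 5 lower (median -0.12). Ctnnal1 was 3.64-fold higher and Afdn, which binds nectins to actin, 1.83-fold lower (adjusted p = 6.31e-05).

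**Figure D5:**
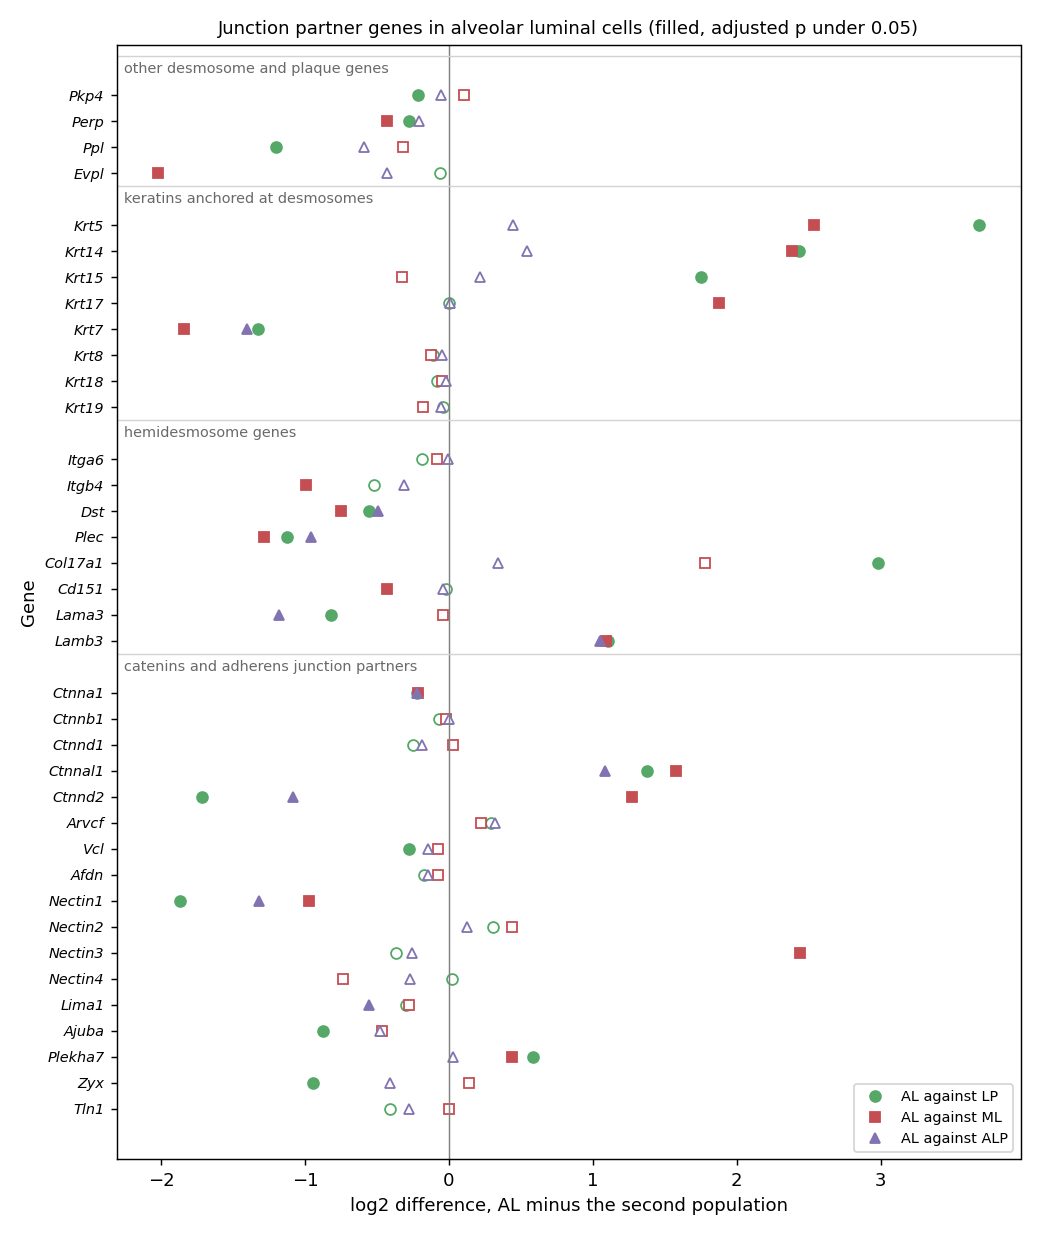
Log2 difference of AL against LP, ML and ALP (circles, squares and triangles) for the tested genes of the desmosome, keratin, hemidesmosome and adherens junction lists; filled points passed an adjusted p of 0.05. Plec lies at -1.12 and -1.29 against LP and ML, Krt7 at -1.33 and -1.84, and Krt18 at -0.08 and -0.05.

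Other classical cadherins were mostly dim, with 4 of 13 measured genes bright enough to test. In MaSC against LP, 2 of the 4 were higher and none lower (median 1.14): Cdh2, N-cadherin and a neighbour of Dsc3 in the RefSeq annotation, by 2.35-fold (adjusted p = 0.000297; mean 472 in MaSC and 199.9 in LP) and Cdh10 by 20.8-fold (adjusted p = 0.000339; means 697 and 39.2). Outside MaSC the means of Cdh10 were 43.0 or less, so like Cdh3 it entered the test only through MaSC. Its fold is against values not shown to be above background. Of 7 atypical cadherins tested, 4 were higher and 1 lower in MaSC than in LP (median 0.96). Fat2 led, at 36.0-fold (adjusted p = 0.000121), with means of 407 in MaSC and 14.4 in LP. Among 15 tested regulators of junction genes, 3 were higher and 6 lower in MaSC than in LP (median -0.05). Snai2, a repressor known to act on Cdh1, was 49.7-fold higher (adjusted p = 5.32e-05) and Trp63, the p63 factor of basal epithelia, 13.7-fold higher (adjusted p = 0.00017). Twist2, a factor of mesenchymal cells, was 53.1-fold lower (adjusted p = 0.000351), with means of 5.87 in MaSC and 274.7 in LP. Ovol1, an epithelial zinc finger factor, was 2.30-fold lower (adjusted p = 0.00181). The dim values of Fat2 in LP and of Twist2 in MaSC are not shown to be above background, so the size of their folds is uncertain. The fibroblast markers were also higher on LP than on MaSC, as given above. Their part in these differences was not tested.

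Across the 15 arrays, which share populations, some of the 10 genes varied together, given here as a description. Dsp was closest to Pkp1 (Pearson's r = 0.83) and Pkp3 (0.79), and Jup to Pkp3 (0.82). Cdh3 and Dsc3 had an r of 0.70, and Pkp2 opposed both, at -0.89 and -0.74. Among all genes tested, the pattern of Dsp was most like that of Fxyd6 (0.99), Osmr (0.98) and Rhoc (0.98). That of Pkp2 was most like Cldn7 (0.98), Marveld2 (0.98) and Clu (0.98), of which Cldn7 and Marveld2 encode tight junction proteins. That of Cdh3 was most like Edaradd (0.97), Nebl (0.97) and Plxnb3 (0.97), and that of Pkp1 like Kitl (0.97), Fndc4 (0.97) and Tpm1 (0.96). Cdh1 was most like Wdr1 (0.94), Jup like Smad3 (0.96), Pkp3 like Myo1e (0.95), Dsc2 like Fam160a1 (0.94), Dsg2 like S100a3 (0.91) and Dsc3 like Ifi202b (0.85).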

How the data were processed

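The 5 populations of mouse mammary epithelial cells, 3 samples each, were profiled on Affymetrix whole-genome mouse arrays after sorting and RNA amplification (NuGEN Ovation). The deposited values are linear intensities, which the authors normalized with dChip; neither its version nor its settings are stated. Replicates were not pooled. Probe sets were named through the platform annotation: of 45101, 34945 had a single symbol, 932 several and 9160 none, and 64 were controls.

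Intensities under 1 were set to 1 and log2 transformed. Probe sets above the median of the array on at least 3 arrays were kept (22143), and the one with the highest mean represented its gene (12143 genes). Population means were fitted with limma 3.58.1 in R 4.3.3 (lmFit, eBayes) over all 15 arrays, all 10 pairs were contrasted, and p-values were adjusted by Benjamini-Hochberg over all genes, with a threshold of 0.05. Folds are 2 to the power of the mean log2 difference; SE is limma's moderated one, pooled over populations. The fit was tested on simulated data. Array data carry no read depth, so the number of arrays limits the precision.

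No detection calls or scan dates were used. ALP samples were numbered apart from the others, so a batch of ALP and the population cannot be told apart. Within a population, array correlations were 0.901 to 0.989, and no arrays were identical. Intensities of different probe sets were not compared with each other. The 10 genes and the lists were chosen with earlier results of these data known. All 10 were described in every pair; from each list up to 4 genes with the largest moderated t were named per comparison, and for each of the 10 up to 3 genes of the highest correlation.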

Additional observations from a re-analysis of the deposited data

How the results depend on the processing

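Of 33 called differences among the 10 genes, all 33 kept their direction under every alternative and 21 passed the threshold in every one; 398 of 451 values under alternatives passed. A further 22 differences passed only under an alternative. The calls of Dsc3, of Cdh1 between MaSC and LP, of Cdh3 between AL and LP, of Jup in AL and of Pkp1 between ALP and ML were those that failed most; the cause was not tested. With array weights, which gave the lowest weights to ALP replicate 3 (0.220) and MaSC replicate 3 (0.263), the number of the 10 genes called was 5 for MaSC against ALP (3 without weights), 6 for LP against ML (1), 1 for ALP against LP (0) and 6 for AL against ALP (2). Calls among all 12143 genes rose too. With weights they were 6386 for MaSC against ALP (4665 without), 7405 for LP against ML (5952) and 4225 for ALP against LP (915). For AL against ALP they were 7380 (4849). On the second brightest probe sets, which 5 genes have, the number of the 10 genes called was 2 for LP against ML and 2 for ALP against ML. Of all 12143 genes, 5953 and 4453 were called in these pairs. With only the populations compared in the fit, 4 of the 10 were called for LP against ML, with no share of all genes given. For ALP against ML (1 called), the number of the 10 genes called was 0 under quantile normalization, where 5263 of all 12143 genes were called. It was 0 with no filter on low intensities (4387 of 18193 genes) and 3 with arrays centred on their medians (6788 of 12143). Centring moved the median of all genes, by log2, from -0.02 to -0.35 for ALP against ML and from -0.02 to 0.17 for AL against ALP. The array medians were highest on ALP replicates 2 and 3 (180.2 and 209.9) and lowest on ML (136.8 to 138.6). Centring turned 4 uncalled differences: Cdh1 (-0.0229) and Dsg2 (-0.0225) for LP against ML, and Cdh1 (0.0147) and Jup (0.0040) for AL against ALP. Array weights turned Dsp for ALP against ML (0.0217).

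Leaving out 1 array gave 2 to 5 calls for MaSC against LP, 4 to 5 for MaSC against ML, 2 to 4 for MaSC against ALP, 6 to 8 for MaSC against AL, 1 to 1 for LP against ML, 0 to 0 for ALP against LP, 0 to 1 for ALP against ML, 5 to 6 for AL against LP, 3 to 4 for AL against ML, 2 to 5 for AL against ALP and 6 to 9 for the F test. The count for MaSC against LP was 2 without MaSC replicate 3, LP replicate 1 or LP replicate 3, that for ALP against ML was 0 without ML replicate 1 or 2 or ALP replicate 1 or 2, and that for AL against ALP was 5 without ALP replicate 3. The shares of all genes called without 1 array are not given, so these counts show only how stable the calls were. The sources do not say that equal replicate numbers mark the same mouse, and same-numbered arrays did not deviate together (correlations from -0.23 to 0.21, with no comparison over 0.1 in all 3 pairs). A replicate block over the 15 arrays changed none of the counts. Over the 9 virgin wild-type arrays the block left 2 calls between MaSC and LP (4 without it), where 4184 of all 12143 genes were called. Cdh1 was lost at an adjusted p of 0.0734 and Dsc3 at 0.0900. The block left 4 calls between MaSC and ML (5 without it), where 6827 of all genes were called, and Dsc3 was lost at 0.119.

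The files hold no measure of background for each probe set, so how far below detection the dim values of Cdh3 and Dsc3 lie cannot be said.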
